A study of Mus musculus with 32 samples.

Results

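The constitutive proteasome genes were followed in bone marrow macrophages (BMM) of atherosclerosis-susceptible DBA/2 mice and atherosclerosis-resistant AKR mice. Members were all genes in the probe annotation of either array whose symbol is Psma, Psmb, Psmc or Psmd followed by a number, without Psmb8, Psmb9 and Psmb10, which encode the catalytic subunits of the immunoproteasome. This gave 35 of the 17892 genes named on either array. Of these, 34 were on the array of experiment 1 and 33 on that of experiment 2.

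The proteasome is the protease complex that degrades ubiquitin-tagged proteins in the cytosol and nucleus. Its barrel-shaped core is built of alpha subunits (Psma genes), which form the gated outer rings, and beta subunits (Psmb genes), which form the inner rings and hold the active sites. A regulatory particle caps the core. Its base holds a ring of ATPases (Psmc genes) that unfold the substrate, and its lid removes the ubiquitin chain. In macrophages the proteasome also trims proteins for antigen presentation, for which interferon-induced beta subunits can replace the constitutive ones.

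All mice lacked ApoE (ApoE-/-), were 16 weeks old and ate chow, and their marrow cells were grown into macrophages in medium containing L-cell conditioned medium, a source of macrophage colony-stimulating factor. Each experiment had 4 groups of 4 arrays: DBA/2 loaded, DBA/2 unloaded, AKR loaded and AKR unloaded. Loaded cells had received acetylated low density lipoprotein (AcLDL), a modified lipoprotein that scavenger receptors take up and that turns macrophages into foam cells, for 24 h. Experiment 1 used cells of female mice and 100 µg/ml AcLDL, and experiment 2 used cells of male mice, 50 µg/ml AcLDL and another version of the array. According to the paper, the AcLDL batches and the years also differed, and the doses differed because AcLDL preparations varied in loading efficiency. Sex, dose, AcLDL batch, year and array version therefore cannot be told apart. Whether the cultures of a group were grown from different animals is not given in the sources used here, and p-values therefore cover the spread between cultures alone. Values are quantile-normalized log2 probe values, and every test compares groups within a probe and an experiment. A fold change is a log2 difference between group means, given with its standard error, and a gene was called at a limma adjusted p under 0.01.

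Macrophage markers were high in every group, with all 6 genes read from the list, Lyz2 (lysozyme) among them, above the filter on dim probes in both experiments. Csf1r and Cd68, also macrophage genes, were not read. Their summed linear value in experiment 1 was 39165 in loaded DBA/2, 39679 in unloaded DBA/2, 31411 in loaded AKR and 39506 in unloaded AKR cells. In experiment 2 it was 27317.5, 28907, 21520 and 22240 in the same order. Of the genes read from the other lists in experiment 1, 2 of 6 neutrophil, 1 of 4 osteoclast, 2 of 5 stromal and 2 of 3 B cell genes passed the filter. So did 2 of 4 dendritic cell, 1 of 5 T and NK cell and 0 of 3 mast and erythroid genes. The summed linear value of the neutrophil list was 1727 in loaded DBA/2, 616.1 in unloaded DBA/2, 791 in loaded AKR and 708 in unloaded AKR cells of experiment 1. S100a8 alone carried it (group means 8.33 to 10.5), while S100a9, a defining neutrophil gene, stayed at 5.54 to 5.71, below the filter. The osteoclast sum was 723 in loaded DBA/2, 589.7 in unloaded DBA/2, 1964 in loaded AKR and 901 in unloaded AKR cells. It was carried by Ctsk (8.72 to 10.8), while Acp5, Calcr and Ocstamp stayed between 5.54 and 5.94, below the filter. The stromal sum was 548 in loaded DBA/2, 379 in unloaded DBA/2, 292 in loaded AKR and 283 in unloaded AKR cells, led by Dcn (5.63 to 8.35), with Col1a1, Col1a2 and Col3a1 below the filter. In experiment 2 the neutrophil sum was 310.05 in loaded DBA/2, 297 in unloaded DBA/2, 674 in loaded AKR and 792 in unloaded AKR cells, again with S100a9 below the filter. The osteoclast sum of experiment 2 was 195, 153, 500 and 461 in the same order, led by Ctsk (6.74 to 8.81). The part of these cells in the results was not tested, and fewer cells of a type cannot be told apart from less RNA per cell. In experiment 2, AKR loaded replicate 2 correlated better with the unloaded AKR group than with its own, and AKR unloaded replicate 1 better with the loaded AKR group. No other array did so. Values of experiment 2 follow the labels, and values without these 2 doubted arrays are given where stated.

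Dim probes were left out of the tests: a probe needed a mean above 5.98 (experiment 1) or 4.29 (experiment 2), the medians of the deposited tables, in at least 1 group. This kept 32 of 34 members in experiment 1 and 31 of 33 in experiment 2, 30 of them in both, and 19 of these 30 were read from the same probe. Psma6, an alpha ring subunit, was below the filter in both experiments. Psmb11, the beta subunit of thymic cortical epithelium, was below it in experiment 1, and Psma1 was below it in experiment 2. Psmb11 and Psmd3 had no probe on the array of experiment 2, and Psmd1 had none on that of experiment 1.

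Promoter sequence is shown for Psmb6 and Psmb5, the active-site subunits with the lowest DBA/2 to AKR ratios in unloaded cells of experiment 1. Transcription of proteasome genes is known to be driven by NFE2L1, which binds antioxidant response elements, and many of these promoters also carry the CCAAT box bound by NF-Y. The 250 bases upstream of the start site of each promoter window are printed 5′ to 3′ from RefSeq (GRCm38.p6), with capitals marking matches to TGANNNNGC on either strand. Psmb6 lies on the plus strand (chr11:70525107-70525356) and Psmb5 on the minus strand (chr14:54617996-54618245). The annotated gene span of Psmb6 begins at 70525324, so the end of its stretch, with the marked match, lies inside that span.
Psmb6: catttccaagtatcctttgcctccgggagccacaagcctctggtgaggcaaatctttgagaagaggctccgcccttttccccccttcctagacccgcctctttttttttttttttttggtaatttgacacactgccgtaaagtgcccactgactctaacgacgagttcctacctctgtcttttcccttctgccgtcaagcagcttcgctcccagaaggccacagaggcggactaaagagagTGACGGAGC
Psmb5: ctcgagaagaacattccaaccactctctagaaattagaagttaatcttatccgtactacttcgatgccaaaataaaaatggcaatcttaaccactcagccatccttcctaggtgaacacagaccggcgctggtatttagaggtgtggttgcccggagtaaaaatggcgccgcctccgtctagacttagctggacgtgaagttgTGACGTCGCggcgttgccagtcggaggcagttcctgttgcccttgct
Each printed stretch held 1 match, and neither held CCAAT. Over the full 300 bases of each RefSeq window, TGANNNNGC occurred in 17 of the 29 members with a window (58.6%), against 45.0% of all 27025 genes in the table. CCAAT occurred in 12 of the 29 (41.4%), against 41.1% of all genes. The 2 motifs were counted separately wherever they overlapped, and a match is a description of letters, not a site. These are reference sequences, and differences between the DBA/2 and AKR genomes were not tested.

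The strain comparison in unloaded cells asked which proteasome genes differ between DBA/2 and AKR macrophages before loading. In experiment 1, 18 of the 32 members were called and all 18 were lower in DBA/2, while 28.2% of all 13339 kept probes were called, 13.4% higher and 14.8% lower. The log2 difference was negative for 31 of 32 members, with a median of -0.26 against -0.0055 over all kept probes. Psmb6 stood far below the rest at -3.65, and without it the members ranged from -0.68 (Psmb5) to 0.02 (Psmd10). In experiment 2, only Psmb6 was called among 31 members, against 9.90% of 13732 kept probes. The remaining members there ranged from -0.30 to 0.30, 19 of 31 were positive, and the median was 0.08 against -0.0020 over all probes. The median standard error of the members was 0.078 in experiment 1 and 0.103 in experiment 2. Without the doubted arrays, Psmb6 was again the only member called, against 14.0% of 13911 kept probes, and 21 of 31 differences were positive. The difference between the experiments was not tested.

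**Figure D1:**
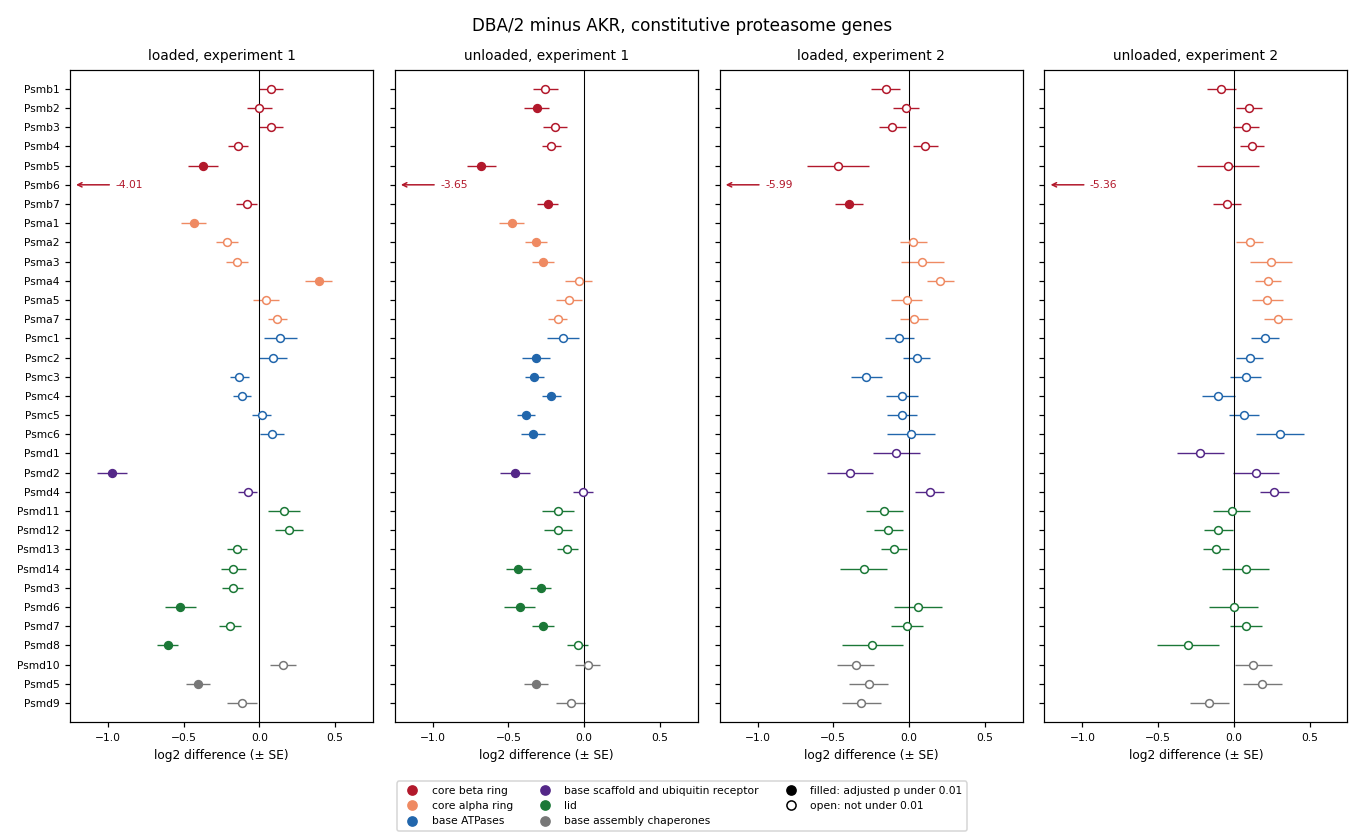
Log2 difference DBA/2 minus AKR (x axis, ± SE) of each kept constitutive proteasome gene (y axis, coloured by role) in loaded and unloaded cells of experiments 1 and 2, with 4 arrays per group. Filled points have an adjusted p under 0.01. Arrows mark Psmb6, which lies outside the axis in all 4 panels. In unloaded cells of experiment 1, 31 of 32 members lie left of 0, and in those of experiment 2, 12 of 31.

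Psmb6 encodes the beta subunit of the caspase-like active site. In experiment 1 its probe read 7.82, 7.75, 7.91 and 7.81 in unloaded DBA/2 cells, against 11.36, 11.49, 11.49 and 11.54 in unloaded AKR cells. In loaded cells it read 8.03, 8.10, 8.03 and 7.95 in DBA/2, against 12.05, 11.94, 12.04 and 12.12 in AKR. Every DBA/2 array lay over 3 log2 units below every AKR array. Psmb6 was 12.5-fold lower in unloaded DBA/2 than AKR cells (log2 -3.65 ± 0.064, adjusted p = 1.57e-23) and 16.1-fold lower in loaded cells (-4.01 ± 0.064, adjusted p = 3.05e-24). Only 4 of the 13339 kept probes had a more negative log2 difference in either state.

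Experiment 2 measured Psmb6 with a different probe. This probe read 6.96, 4.09, 4.45 and 4.45 in unloaded DBA/2 cells, against 10.71, 10.19, 10.37 and 10.12 in unloaded AKR cells, the first AKR array being a doubted one. In loaded cells it read 4.82, 4.54, 4.46 and 4.34 in DBA/2, against 10.74, 9.95, 10.69 and 10.75 in AKR, where the second AKR array is the doubted one. The strains did not overlap in either state, and every DBA/2 value but the 6.96 lay between 4.09 and 4.82, near the median of the whole table (4.29), so the size of the fold change depends on the level of dim probes. The log2 difference was -5.36 ± 0.43 in unloaded cells (adjusted p = 1.06e-07) and -5.99 ± 0.43 in loaded cells (adjusted p = 2.37e-08). Without the doubted arrays these were -5.24 ± 0.46 (adjusted p = 3.89e-07) and -6.19 ± 0.46 (adjusted p = 4.43e-08). DBA/2 unloaded replicate 1 read far above the other arrays of its group, and without it the unloaded difference was -6.01 (adjusted p = 1.04e-11). Psmb6 was the only member called for strain in both experiments, in either state. The methods removed probes that lie over strain variants, a step that was not repeated here, and whether either Psmb6 probe lies over one was not tested.

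**Figure D2:**
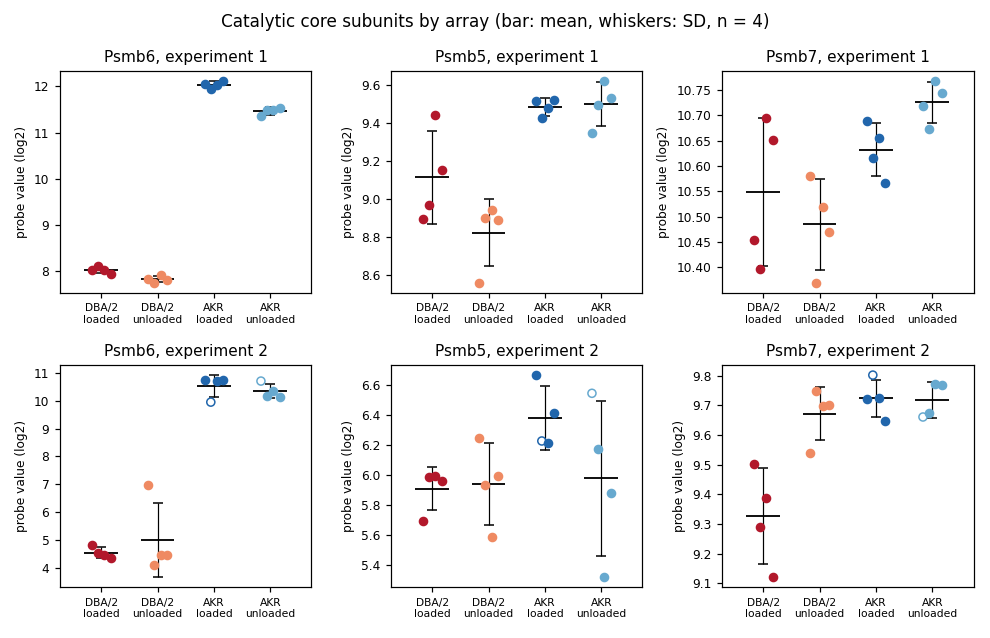
Log2 probe value (y axis) of Psmb6, Psmb5 and Psmb7 on each array (points) of the 4 groups (x axis) in experiments 1 and 2, with the group mean (bar) and SD (whiskers, n = 4). Open points are the 2 doubted AKR arrays of experiment 2. For Psmb6 the DBA/2 and AKR arrays do not overlap in any state or experiment. For Psmb5 they do not in unloaded cells of experiment 1 or in loaded cells of experiment 2.

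Psmb5 encodes the chymotrypsin-like active site, the target of bortezomib. In unloaded cells of experiment 1 it read 8.56, 8.90, 8.94 and 8.89 in DBA/2, against 9.35, 9.50, 9.62 and 9.54 in AKR. The groups did not overlap, and Psmb5 was lower in DBA/2 (log2 -0.68 ± 0.098, 62.5% of the AKR level, adjusted p = 4.93e-06). In loaded cells it read 8.90, 8.97, 9.44 and 9.16 in DBA/2, against 9.52, 9.43, 9.48 and 9.52 in AKR. One DBA/2 array lay within the AKR range, and the difference was -0.37 ± 0.098 (adjusted p = 0.0037), while the interaction was not called (0.31 ± 0.14, adjusted p = 0.109). That call was lost when AKR loaded replicate 1 or 4 or DBA/2 loaded replicate 1 or 2 was left out (log2 -0.30 to -0.36, adjusted p up to 0.022). In experiment 2 the same probe read 6.25, 5.93, 5.59 and 5.996 in unloaded DBA/2 cells, against 6.54, 6.17, 5.32 and 5.88 in unloaded AKR cells. The groups overlapped there, with a difference of -0.04 ± 0.20 (adjusted p = 0.93) that was 0.15 ± 0.18 without the doubted arrays (adjusted p = 0.62). In loaded cells of experiment 2 it read 5.70, 5.99, 5.99 and 5.96 in DBA/2, against 6.66, 6.23, 6.21 and 6.41 in AKR. Those groups did not overlap, but the difference of -0.47 ± 0.20 was not called (adjusted p = 0.118).

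Psmb7 encodes the trypsin-like active site, and its probes differed from each other. In unloaded cells of experiment 1 the brightest probe read 10.58, 10.37, 10.52 and 10.47 in DBA/2, against 10.72, 10.67, 10.77 and 10.74 in AKR. The 2 sets of arrays did not overlap, and the difference was -0.24 ± 0.071 (adjusted p = 0.0086). This call was lost in 11 of the 16 fits that left out 1 array (log2 -0.20 to -0.26, adjusted p up to 0.038), and was kept without DBA/2 unloaded replicate 1 or any 1 of the DBA/2 loaded arrays. A dimmer Psmb7 probe was called in unloaded (-0.44) and loaded cells (-0.50) of experiment 1, where the brightest gave -0.08 in loaded cells and was not called. In loaded cells of experiment 2 this other probe, there the brightest, read 9.50, 9.29, 9.39 and 9.12 in DBA/2, against 9.72, 9.80, 9.72 and 9.65 in AKR. These groups were fully apart (-0.40 ± 0.092, adjusted p = 0.0050, and -0.37 ± 0.096, adjusted p = 0.0079 without the doubted arrays). The call was lost when AKR loaded replicate 1, 2 or 3 or DBA/2 loaded replicate 2, 3 or 4 was left out alone (adjusted p up to 0.022). The 2 further Psmb7 probes of experiment 2 gave -0.08 and 0.03 in loaded cells, and neither was called.

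The remaining beta ring genes shape the inner rings without an active site. Of these, only Psmb2 was called in unloaded cells of experiment 1 (-0.31 ± 0.083, adjusted p = 0.0039), so that 4 of 7 kept beta genes were called lower in DBA/2. Psmb1, Psmb3 and Psmb4 gave -0.26, -0.19 and -0.22 and were not called. In the alpha ring, 3 of 6 kept genes were lower in unloaded DBA/2 cells: Psma1, Psma2 (-0.32 ± 0.072, adjusted p = 0.0010) and Psma3 (-0.27 ± 0.073, adjusted p = 0.0042). Psma1 read 9.66, 9.74, 9.92 and 9.91 in unloaded DBA/2 cells, against 10.11, 10.26, 10.29 and 10.48 in unloaded AKR cells of experiment 1. The groups did not overlap (-0.48 ± 0.083, adjusted p = 5.54e-05).

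The base of the regulatory particle was the role with the highest share called in unloaded cells of experiment 1. Its ATPases were lower in DBA/2 for 5 of 6 genes (Psmc2 to Psmc6), with a median of -0.32, and Psmc1 gave -0.14 and was not called. Psmc6 lay close to the filter, with group means of 6.04 to 6.38 in experiment 1 and 4.09 to 4.39 in experiment 2. Psmc5 read 9.83, 9.83, 9.85 and 9.71 in unloaded DBA/2 cells, against 10.18, 10.24, 10.19 and 10.14 in unloaded AKR cells. The 2 sets of arrays did not overlap (-0.38 ± 0.061, adjusted p = 1.69e-05), and a second Psmc5 probe was also called (-0.37). Psmd2, a scaffold of the base that receives ubiquitin-like domains, was lower in unloaded DBA/2 cells (-0.45 ± 0.10, adjusted p = 7.54e-04), and Psmd4, a ubiquitin receptor, gave -0.01. In experiment 2 no ATPase was called, and the 6 differences ranged from -0.10 to 0.30.

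The lid had 4 of 8 kept genes lower in unloaded DBA/2 cells of experiment 1. They were Psmd14, the deubiquitinase of the lid (-0.43 ± 0.084, adjusted p = 1.94e-04), Psmd6 (-0.43), Psmd3 (-0.29) and Psmd7 (-0.27). The other Psmd7 probe was called at -0.52, but the other Psmd6 probe gave -0.15 and was not called. The means of Psmd6 in DBA/2 cells, 6.06 loaded and 6.27 unloaded, lay close to the filter. For Psmd13 only the dimmer of its probes was called (-0.41, against -0.11 for the brightest). Psmd5, a chaperone of base assembly, was lower (-0.32 ± 0.079, adjusted p = 0.0024), while Psmd9 and Psmd10, chaperones of the same step, gave -0.09 and 0.02.

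In loaded cells of experiment 1, 8 of 32 members were called, 7 lower and 1 higher in DBA/2, against 28.8% of all kept probes (15.0% lower, 13.8% higher), and the median was -0.11. Psmb6, Psmb5, Psma1 (-0.43 ± 0.083), Psmd2, Psmd5 (-0.41 ± 0.079), Psmd6 (-0.52 ± 0.10) and Psmd8 were lower, and Psma4, an alpha ring subunit, was higher (0.39 ± 0.090, adjusted p = 9.97e-04). None of the 6 ATPases was called there. In experiment 2, Psmb6 and Psmb7 were called among 31 members, against 12.1% of all kept probes, and these were also the 2 called without the doubted arrays, against 19.2%.

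Psmd2 had the largest difference after Psmb6 in loaded cells of experiment 1. It read 6.76, 6.50, 6.90 and 6.67 in loaded DBA/2 cells, against 7.78, 7.73, 7.72 and 7.48 in loaded AKR cells. These groups were fully apart, and Psmd2 in DBA/2 was at 51.1% of the AKR level (-0.97 ± 0.10, adjusted p = 1.79e-08). In loaded cells of experiment 2 another Psmd2 probe read 4.86, 5.22, 4.64 and 4.69 in DBA/2, against 5.35, 5.58, 5.03 and 5.01 in AKR. The groups overlapped at values near the filter, and the difference of -0.39 ± 0.15 was not called (adjusted p = 0.086, or 0.20 without the doubted arrays).

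Psmd8 encodes a lid subunit. In loaded cells of experiment 1 it read 9.41, 9.38, 9.53 and 9.46 in DBA/2, against 10.09, 9.92, 10.02 and 10.17 in AKR. The groups did not overlap (-0.61 ± 0.067, adjusted p = 6.97e-08), although in unloaded cells Psmd8 differed by only -0.04 ± 0.067. In loaded cells of experiment 2 it read 6.04, 5.70, 6.04 and 5.62 in DBA/2, against 6.16, 5.94, 5.99 and 6.29 in AKR, and the groups overlapped (-0.24 ± 0.20, adjusted p = 0.45, or -0.30 ± 0.18, adjusted p = 0.26 without the doubted arrays).

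The loading comparisons asked how the same genes responded to AcLDL within a strain. In DBA/2 cells of experiment 1, 3 of 32 members were called, against 12.1% of kept probes (5.74% higher, 6.32% lower). Psmd8 (0.26 ± 0.067, adjusted p = 0.0066) and Psmc5 rose, and Psma1 fell. In AKR cells of experiment 1, 8 of 32 were called, against 30.0% of kept probes (15.0% higher, 15.0% lower). Psmd8, Psmb6 and Psmd13 rose, and Psma1, Psma4 (-0.34 ± 0.090), Psma7 (-0.30 ± 0.063), Psmc6 (-0.30 ± 0.077) and Psmd10 fell. Both shares of members, 9.4% in DBA/2 and 25% in AKR cells, lay near those of all kept probes. The sign of the log2 change was positive for 23 of 32 members in DBA/2 cells (median 0.10) and negative for 22 of 32 in AKR cells (median -0.10), with medians over all probes of 0.0092 and 0.0010. Leaving out 1 array moved the DBA/2 count to 1 (DBA/2 loaded replicate 1 or 4, DBA/2 unloaded replicate 3 or 4). It moved the AKR count to 5 (AKR loaded replicate 1 or 2, AKR unloaded replicate 1) or 4 (AKR unloaded replicate 2).

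In experiment 2 the signs ran the other way round. In DBA/2 cells 21 of 31 members were negative (median -0.06) and only Psmd10 was called, against 7.84% of kept probes. In AKR cells 26 of 31 were positive (median 0.08) and limma called 0 members and 0% of kept probes. At an unadjusted p under 0.05 there were 3 of 31 members, against 1877 of all 13732 kept probes. Without the doubted arrays 2 of 31 were called in AKR cells, against 18.4% of kept probes: Psma3 (0.50 ± 0.12, adjusted p = 0.0058) and Psmd13. Then 3 were called in DBA/2 cells, against 17.9%, as Psmb7 (-0.35 ± 0.089) and Psmd13 (0.32 ± 0.074) joined Psmd10. Without AKR loaded replicate 2 alone, 2 members were called in DBA/2 cells. The difference between the experiments was not tested.

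**Figure D3:**
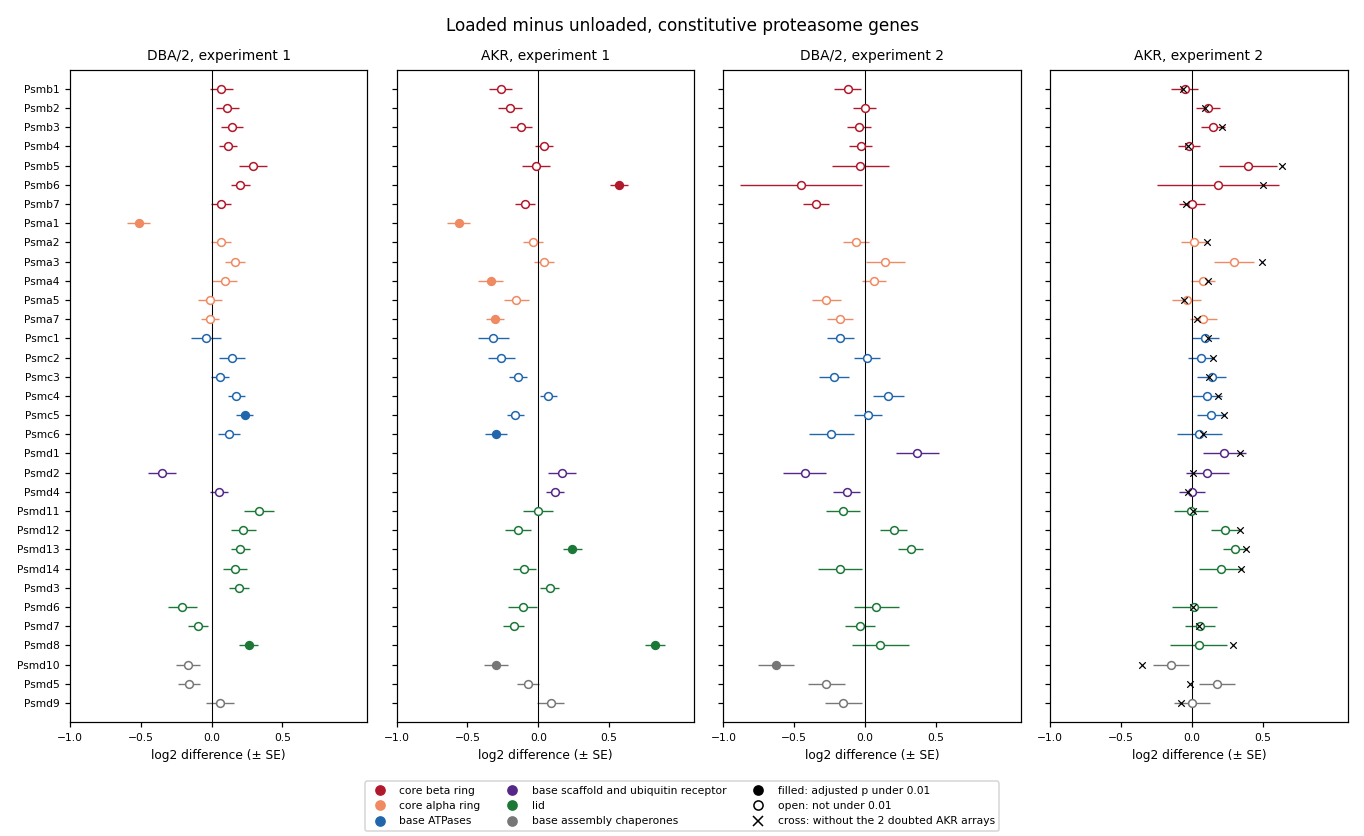
Log2 change loaded minus unloaded (x axis, ± SE) of each kept constitutive proteasome gene (y axis, coloured by role) in DBA/2 and AKR cells of experiments 1 and 2, with 4 arrays per group. Filled points have an adjusted p under 0.01, and crosses give AKR cells of experiment 2 without the 2 doubted arrays. In experiment 1 the largest rise is Psmd8 in AKR cells at 0.82, and in experiment 2 the filled point is Psmd10 in DBA/2 cells at -0.63.

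Psmd8 in AKR cells of experiment 1 had the largest response to loading among the members by their brightest probes. In AKR cells of experiment 1 it read 10.09, 9.92, 10.02 and 10.17 after loading, against 9.30, 9.14, 9.25 and 9.21 without it. Every loaded array lay above every unloaded one, and Psmd8 rose to 1.77-fold of the unloaded level (0.82 ± 0.067, adjusted p = 4.29e-10). Its DBA/2 values were 9.41, 9.38, 9.53 and 9.46 after loading, against 9.13, 9.30, 9.17 and 9.12. The 2 sets of arrays did not overlap, but the call was lost when DBA/2 loaded replicate 1, 3 or 4 or DBA/2 unloaded replicate 1, 3 or 4 was left out (log2 0.23 to 0.27, adjusted p up to 0.026). In experiment 2 Psmd8 changed by 0.05 ± 0.20 in AKR cells, or 0.29 ± 0.20 without the doubted arrays, and by 0.11 ± 0.20 in DBA/2 cells, none of them called.

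Psmb6, low in DBA/2, rose with loading in AKR cells of experiment 1 to 1.48-fold of the unloaded level (0.57 ± 0.064, adjusted p = 1.06e-07). The 4 loaded AKR arrays (11.94 to 12.12) lay above the 4 unloaded ones (11.36 to 11.54). The loaded DBA/2 arrays (7.95 to 8.10) also lay above the unloaded ones (7.75 to 7.91), but the change of 0.20 ± 0.064 was not called (adjusted p = 0.025). Its change in AKR cells of experiment 2 was 0.19 ± 0.43 (adjusted p = 0.87). Without the doubted arrays it was 0.50 ± 0.49, with loaded arrays at 10.69 to 10.75 and unloaded arrays at 10.12 to 10.37, and it was not called (adjusted p = 0.50). These standard errors pool the spread of all 4 groups. With all arrays, the SD of Psmb6 was 1.32 in unloaded DBA/2 cells, where 1 array read 6.96. It was 0.26 in unloaded and 0.39 in loaded AKR cells.

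Psma1, an alpha ring subunit, fell with loading in both strains of experiment 1. It read 9.27, 9.12, 9.42 and 9.35 in loaded DBA/2 cells, against 9.66, 9.74, 9.92 and 9.91 in unloaded DBA/2 cells (-0.52 ± 0.083, adjusted p = 5.77e-05). In AKR cells it read 9.82, 9.71, 9.74 and 9.62 after loading, against 10.11, 10.26, 10.29 and 10.48 without it (-0.56 ± 0.083, adjusted p = 5.66e-06). Loaded and unloaded arrays did not overlap in either strain. Psma1 had no kept probe in experiment 2.

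Psmd10, also known as gankyrin, is a chaperone of base assembly. In DBA/2 cells of experiment 2 it read 8.65, 8.59, 8.72 and 8.65 after loading, against 9.16, 9.33, 9.26 and 9.37 without it. These groups were fully apart, and Psmd10 fell by 0.63 on the log2 scale (SE 0.12, adjusted p = 0.0024). Its other 2 kept probes there were called too (-0.74 and -0.87). In DBA/2 cells of experiment 1 the brightest probe gave -0.17 ± 0.084 (adjusted p = 0.17), and 1 of its 3 probes was called (-0.40). In AKR cells of experiment 1 Psmd10 read 8.53, 8.48, 8.60 and 8.57 after loading, against 8.87, 9.06, 8.72 and 8.74 without it. There was no overlap either (-0.30 ± 0.084, adjusted p = 0.0055), but the call was lost without AKR loaded replicate 1, 2 or 4 or AKR unloaded replicate 1 or 2 (log2 -0.23 to -0.31, adjusted p up to 0.032). It gave, in AKR cells of experiment 2, -0.15 ± 0.12, and -0.35 ± 0.098 without the doubted arrays (adjusted p = 0.0125).

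Psmd13, a lid subunit picked after its values were seen, read 11.49, 11.46, 11.45 and 11.52 in loaded AKR cells of experiment 1, against 11.10, 11.13, 11.38 and 11.34 in unloaded ones. The groups did not overlap (0.24 ± 0.068, adjusted p = 0.0062), although a dimmer probe gave 0.03. In AKR cells of experiment 2 it read 10.52, 10.30, 10.45 and 10.60 after loading, against 10.23, 10.13, 10.12 and 10.17 without it. The 2 sets of arrays did not overlap there, and the change was called only without the doubted arrays (0.38 ± 0.086, adjusted p = 0.0033, against 0.30 ± 0.085, adjusted p = 0.36 by the labels). Psmd13 was the only member called for loading in AKR cells in both experiments, and that only in the fit without these arrays. In DBA/2 cells every loaded array also lay above every unloaded one, at 11.30 to 11.38 against 11.05 to 11.21 in experiment 1. In experiment 2 the DBA/2 arrays lay at 10.26 to 10.44 against 9.97 to 10.09. By the labels neither DBA/2 change was called, with 0.32 ± 0.085 (adjusted p = 0.015) in experiment 2.

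The interaction asked whether the loading response differed between the strains. In experiment 1, 5 of 32 members were called, against 14.8% of kept probes (7.10% positive, 7.74% negative). The response of Psmc5 (0.40 ± 0.086, adjusted p = 0.0012) and Psmc6 (0.42 ± 0.11, adjusted p = 0.0062) was more positive in DBA/2 than in AKR cells. That of Psmd8 (-0.56 ± 0.095, adjusted p = 1.07e-04), Psmd2 (-0.52 ± 0.14, adjusted p = 0.0088) and Psmb6 (-0.36 ± 0.091, adjusted p = 0.0045) was more negative. The count was 3 without AKR loaded replicate 2, 3 or 4 or AKR unloaded replicate 2, and 2 without AKR unloaded replicate 1, DBA/2 loaded replicate 4 or DBA/2 unloaded replicate 3. The interaction was positive for 24 of 32 members in experiment 1 (median 0.14) and negative for 26 of 31 in experiment 2 (median -0.15). In experiment 2 limma called 0 of 31 members with all arrays, against 0.816% of kept probes. At an unadjusted p under 0.05 there were 5 of 31 members, against 2099 of all 13732 kept probes. Without the doubted arrays limma also called 0, against 5.11% of kept probes. Then 6 of 31 members had an unadjusted p under 0.05, against 3302 of all 13911 kept probes.

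Psmc5, a base ATPase, had responses of opposite sign in the strains of experiment 1. It read 10.02, 10.07, 9.97 and 10.11 in loaded DBA/2 cells, against 9.83, 9.83, 9.85 and 9.71 in unloaded DBA/2 cells (0.24 ± 0.061, adjusted p = 0.0066). In AKR cells it read 10.08, 10.001, 10.06 and 9.97 after loading, against 10.18, 10.24, 10.19 and 10.14 without it (-0.16 ± 0.061, adjusted p = 0.034, not called). Loaded DBA/2 and loaded AKR arrays therefore overlapped, with a difference of 0.01 ± 0.061. The DBA/2 call was lost without DBA/2 loaded replicate 1, 2 or 4 or any 1 unloaded DBA/2 array (log2 0.20 to 0.25, adjusted p up to 0.033), while the interaction was called in each of the 16 fits that left out 1 array. A second, dimmer Psmc5 probe gave 0.10 in DBA/2 cells and an interaction of 0.30, neither called.

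Psmd2 in DBA/2 cells of experiment 1 read 6.76, 6.50, 6.90 and 6.67 after loading, against 6.82, 6.99, 7.17 and 7.25 without it. In AKR cells it read 7.78, 7.73, 7.72 and 7.48 after loading, against 7.36, 7.38, 7.62 and 7.69 without it. Loaded and unloaded arrays overlapped in both strains, and neither response was called (-0.35 ± 0.10, adjusted p = 0.014 in DBA/2, and 0.17 ± 0.10, adjusted p = 0.19 in AKR). The interaction call was lost in 11 of 16 fits without 1 array (log2 -0.45 to -0.54, adjusted p up to 0.025) and was kept without AKR loaded replicate 4, AKR unloaded replicate 3 or 4, DBA/2 loaded replicate 3 or DBA/2 unloaded replicate 1. That of Psmb6 was lost without AKR loaded replicate 4, AKR unloaded replicate 1, DBA/2 loaded replicate 4 or DBA/2 unloaded replicate 3 (log2 -0.33 to -0.34, adjusted p up to 0.013). In experiment 2 the interaction of Psmd2 was -0.54 ± 0.22 (adjusted p = 0.23), or -0.44 ± 0.21 (adjusted p = 0.23) without the doubted arrays.

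**Figure D4:**
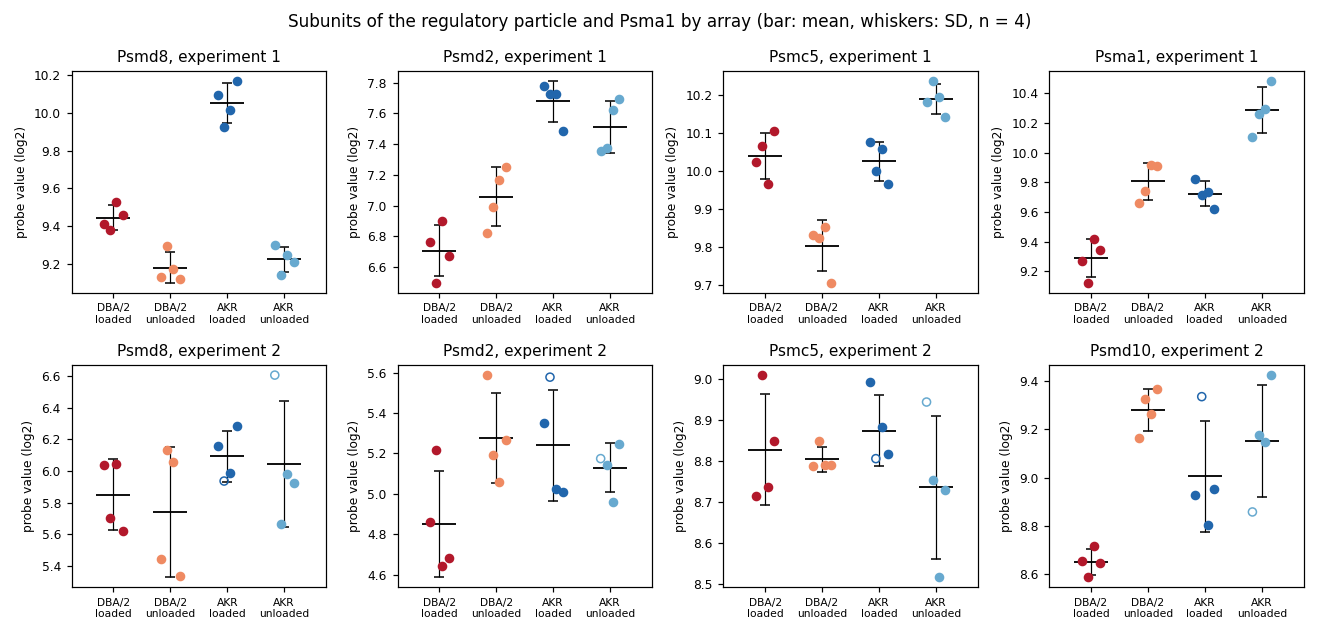
Log2 probe value (y axis) of Psmd8, Psmd2 and Psmc5 in experiments 1 and 2, of Psma1 in experiment 1 and of Psmd10 in experiment 2, on each array (points) of the 4 groups (x axis), with the group mean (bar) and SD (whiskers, n = 4). Open points are the 2 doubted AKR arrays. In experiment 1 loaded AKR cells have the highest Psmd8 values (9.92 to 10.17), and in experiment 2 loaded DBA/2 cells have the lowest Psmd10 values (8.59 to 8.72).

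Other genes of the pathway were read from a list of subunits, activators, assembly factors, receptors, shuttle factors and regulators, of which 22 were kept in experiment 1 and 23 in experiment 2. In unloaded cells of experiment 1, limma called 4 of 22 lower in DBA/2 and 0 higher, against 14.8% and 13.4% of all kept probes. At an unadjusted p under 0.05 there were 9 of 22, 4 of them higher, against 6162 of all 13339 kept probes in either direction. The called genes included Usp14 (-0.31 ± 0.077) and Uchl5 (-0.49 ± 0.091), deubiquitinases bound to the proteasome. In loaded cells 4 were higher and 2 lower, against 13.8% and 15.0%, among them Pomp, the assembly chaperone of the core (0.50 ± 0.064), and Nfe2l2, which encodes NRF2 (-0.55 ± 0.089). Pomp was also higher in unloaded DBA/2 cells of experiment 2 by the labels (0.41 ± 0.097, adjusted p = 0.0063), a call that was lost without the doubted arrays (0.35 ± 0.093, adjusted p = 0.0132).

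The immune catalytic subunits Psmb8, Psmb9 and Psmb10 take the place of Psmb5, Psmb6 and Psmb7 in the immunoproteasome. After loading, 2 of the 3 fell in AKR cells of experiment 1, against 15.0% of kept probes called lower. In DBA/2 cells limma called 0 of 3, against 6.32% called lower. There 2 of 3 had an unadjusted p under 0.05, against 4308 of all 13339 kept probes. In DBA/2 cells of experiment 1 Psmb8, Psmb9 and Psmb10 gave -0.12, -0.26 and -0.27. In AKR cells of experiment 1, Psmb9, the counterpart of Psmb6, gave -0.57 ± 0.088 (adjusted p = 1.15e-05), and Psmb10, the counterpart of Psmb7, gave -0.58 ± 0.083 (adjusted p = 4.21e-06). In experiment 2, 1 of 3 fell in DBA/2 cells, Psmb10 (-0.87 ± 0.21, adjusted p = 0.0087), against 7.84% of kept probes called. In AKR cells there limma called 0 of 3, against 0% of kept probes. At an unadjusted p under 0.05 there were 2 of 3, against 1877 of all 13732 kept probes. All 3 were called lower in DBA/2 cells without the doubted arrays, and 2 of 3 (Psmb8 and Psmb10) in AKR cells, against 17.9% and 18.4% of kept probes called. Unlike Psmb6, Psmb9 was not called between unloaded strains, at 0.12 ± 0.088 in experiment 1 and 0.45 ± 0.21 in experiment 2 (0.34 ± 0.19 without the doubted arrays). Nfe2l1, the regulator named with the promoters above, rose with loading in both strains of experiment 1 (0.31 ± 0.063 in DBA/2 and 0.46 ± 0.063 in AKR). Without the doubted arrays of experiment 2, Nfe2l1 fell by 0.34 in DBA/2 and rose by 0.53 in AKR cells (interaction -0.87 ± 0.13, adjusted p = 3.61e-04), whereas by the labels neither change was called.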

How the data were processed

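Total RNA of 32 macrophage cultures was measured on Illumina mouse arrays, 16 per experiment. Quantile normalization and the log2 transformation were done by the authors per experiment (lumi 2.6.0), who deposited log2 values of all probes (24613 and 25697). They removed polymorphic and undetected probes before their own tests, which was not repeated here, as detection p-values were not used here. Probes were named through the platform annotation updated to current symbols: 20984 and 23978 had 1 gene, 1 and 0 had several, and 3628 and 1719 had none. Unnamed probes stayed in the fits.

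Everything else was computed here. limma 3.58.1 in R 4.3.3 fitted a mean for each of the 4 groups of an experiment to the kept probes, followed by eBayes, with Benjamini-Hochberg adjustment over all kept probes (13339 and 13732) and calls at an adjusted p under 0.01. Strain differences are DBA/2 minus AKR, loading responses are loaded minus unloaded, and the interaction is the DBA/2 minus the AKR response. A gene was read from its brightest kept probe. Values per array are given for Psmb5, Psmb6 and Psmb7, for the 3 called members with the smallest adjusted p in each comparison, and for members called in the same comparison of both experiments. Other members are named by their calls or given by range. The members and gene lists were chosen with earlier results of these data known. Fits were tested on simulated data with known changes. Replicate numbers were checked and were not used to pair the samples in the main fits. The number of arrays limits the precision, since each group holds 4, and the chip of each array is not given in the sources used here. Alternatives covered the filter, an offset, normalization, probe choice, the variance model, the threshold, the samples fitted, single arrays and the doubted arrays, and, chosen after seeing the data, fits within the arrays numbered 1 and 2 and within those numbered 3 and 4. Promoter windows came from RefSeq (GRCm38.p6) for 29 of 35 members, with both strands searched. Figures were drawn with matplotlib 3.10.9 in Python 3.11.15.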

Additional observations from a re-analysis of the deposited data

Results flagged for a closer look

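In groups of 4 arrays, 60 member and group combinations were checked for an array far from the other 3, and 5 had one, where chance gives about 1 in 20. Psmb6 read 6.96 on DBA/2 unloaded replicate 1 of experiment 2, against 4.09 to 4.45 on the other 3 arrays. The same array was the nearest to AKR of the 4 unloaded DBA/2 arrays at 30 of the 38 probes that were over 2 log2 units higher in AKR than DBA/2 loaded cells. At the 54 probes that were as much higher in DBA/2 it was the nearest at 19. Psmb6 read 9.95 on the doubted AKR loaded replicate 2 of experiment 2, against 10.69 to 10.75. Psmb5 read 8.56 on DBA/2 unloaded replicate 1 of experiment 1, against 8.89 to 8.94, and 5.70 on DBA/2 loaded replicate 1 of experiment 2, against 5.96 to 5.99. Psmc5 read 8.85 on DBA/2 unloaded replicate 2 of experiment 2, against 8.79 on each of the others.

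Responses to loading that differed between the strains by the interaction test of experiment 1 were those of Psmb6 (-0.36), Psmc5 (0.40), Psmc6 (0.42), Psmd2 (-0.52) and Psmd8 (-0.56), each as DBA/2 minus AKR. Psma7 was lower on every unloaded DBA/2 array than on every unloaded AKR array in experiment 1 (-0.17) and higher on every one in experiment 2 (0.29), read from different probes. Psmb2 was lower on every loaded AKR array in experiment 1 (-0.20) and higher on every one in experiment 2 (0.12), by the same probe. Neither of these differences between experiments was tested.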

How the results depend on the processing

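Over the 26 called results of the members that the naming rule gives, which leave out Psmd13, 638 recalculations kept the call, 90 lost it and 0 turned the sign. These recalculations were not independent tests, and some could hardly move a result. Raising the adjusted p threshold could not lose a call. Leaving out an array of a group outside the comparison left the log2 difference unchanged and altered only its p-value. The counts of members called moved by over 1.5 times as follows. Without a filter on dim probes, 1 member was called for loading in DBA/2 cells (against 3), 2 for the interaction (against 5) of experiment 1, and 1 for strain in loaded cells of experiment 2 (against 2). At an adjusted p under 0.05, 10 were called for loading in DBA/2 cells and 10 for the interaction of experiment 1, 3 for loading in DBA/2 cells and 2 for strain in unloaded cells of experiment 2 (each against 1). Fits of only the 2 groups compared called 1 for loading in DBA/2 cells of experiment 1 and 1 for strain in loaded cells of experiment 2, and the mean of a gene's probes also called 1 there. For loading in DBA/2 cells of experiment 2, a stricter filter, an offset of 50 and the trend and robust options each called 3, cyclic loess called 2, and leaving out the doubted arrays called 3. Leaving out the doubted arrays called 2 for loading in AKR cells there (against 0). The cause of these moves was not tested.

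With arrays 1 and 2 of each group only, experiment 1 called 8 for strain in unloaded cells (against 18), 1 for loading in DBA/2 cells and 0 for the interaction, and experiment 2 called 0 for strain in unloaded cells, 1 for strain in loaded cells and 0 for loading in DBA/2 cells. With arrays 3 and 4 only, experiment 1 called 8 for strain in unloaded cells, 3 for loading in AKR cells (against 8), 1 for loading in DBA/2 cells and 1 for the interaction, and experiment 2 called 1 for strain in loaded cells and 0 for loading in DBA/2 cells. These fits hold fewer arrays.

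Leaving out 1 array gave, in experiment 1, 13 to 19 for strain in unloaded cells, 7 to 8 for strain in loaded cells, 1 to 4 for loading in DBA/2 cells, 4 to 9 for loading in AKR cells and 2 to 6 for the interaction. In experiment 2 it gave 1, 1 to 2, 1 to 2, 0 and 0 in the same order. Strain in loaded cells of experiment 2 fell to 1 without AKR loaded replicate 1, 2 or 3 or DBA/2 loaded replicate 2, 3 or 4. Same-numbered arrays of different groups had a mean correlation of deviations of 0.079 in experiment 1 and 0.092 in experiment 2. For differently numbered arrays it was -0.026 and -0.040. In experiment 1, arrays with different numbers averaged 0.059 within numbers 1 and 2 or within 3 and 4, and -0.069 across these sets. In experiment 2 these means were -0.059 and -0.030, or 0.043 and -0.063 without the doubted arrays. Same-numbered arrays were thus slightly more alike than others, and the cause was not tested. The main fits did not pair them. With the replicate number as a block, experiment 1 called 19, 8, 4, 10 and 5 and experiment 2 called 1, 2, 1, 0 and 0, in that same order. Signal over background limits genes that lay near the dim-probe level. Among these were Psmb6 in DBA/2 cells of experiment 2, Psmd2 in experiment 2, Psmc6 in both experiments and Psmd6 in DBA/2 cells of experiment 1. Psma5 and Psmd11 in experiment 1 and Psmd6 and Psmd9 in experiment 2 also lay near that level.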

Other observations

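The genes beside Psmb6 on its chromosome were read after its values were seen. Of the 5 nearest protein-coding genes on each side, 6 had a kept probe in experiment 1 and 5 in experiment 2. In unloaded cells of experiment 1, Tm4sf5, a tetraspanin-like membrane protein gene, was higher in DBA/2 than in AKR (1.60 ± 0.067, adjusted p = 7.09e-16), as was Cxcl16, a chemokine that also binds oxidized lipoprotein (0.69 ± 0.075, adjusted p = 6.12e-08). Tm4sf5 was also higher in unloaded DBA/2 cells of experiment 2 (1.40 ± 0.18, adjusted p = 2.46e-05), but not called in loaded cells there (0.37 ± 0.18, adjusted p = 0.167), where experiment 1 gave 1.63 ± 0.067. For unloaded cells, Cxcl16 gave 1.28 ± 0.33 in experiment 2 (adjusted p = 0.0126), or 0.91 ± 0.098 without the doubted arrays (adjusted p = 4.01e-06). Pld2 and Mink1, on the other side of Psmb6, were not called in either experiment by the labels, although Mink1 was higher in unloaded DBA/2 cells of experiment 2 without the doubted arrays (0.59 ± 0.13, adjusted p = 0.00282). None of these neighbours was called lower in DBA/2.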
